A study of Mus musculus with 2 samples.

Results

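The genes described here are the Wnt ligands, their receptors and co-receptors, the R-spondin axis, secreted Wnt inhibitors, and the cytoplasmic and nuclear effectors of the pathway. They were chosen by gene symbol alone, and 53 of the 16906 genes in the deposited table met the rule. RNA was sequenced from luminal epithelial cells sorted from the mammary glands of C57BL/6 mice, with 1 library per group and about 20000 cells behind each. The CKO library came from K8-CreERT2;miR-200c/141-flox/flox mice, in which the keratin 8 promoter drives a tamoxifen-inducible Cre that deletes the microRNA pair miR-200c and miR-141. The Ctrl library came from miR-200c/141-flox/flox mice, which carry the floxed cluster and no Cre. Mice of both genotypes were injected with tamoxifen, and their age is given as 8 weeks. The interval after tamoxifen is 4 weeks in one field of the labels and 3 days in another, and the number of mice per library is not stated. Only CKO carried the Cre driver, so its effects and those of the deletion cannot be told apart.

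Wnt ligands are secreted lipid-modified proteins that bind Frizzled receptors together with the co-receptors Lrp5 and Lrp6. In the canonical branch this stops a complex built on Axin and Apc from degrading beta-catenin (Ctnnb1), which then acts with the Tcf and Lef factors on target genes. In the mammary gland, luminal cells are a source of Wnt signals: Wnt4 relays progesterone to neighbouring basal cells, and R-spondin 1 acts with it. Other ligands, Wnt5a among them, signal through Ror receptors without beta-catenin.

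Levels are in FPKM, reads corrected for transcript length and library size, and so can be compared between genes. Ratios are CKO over Ctrl on the log2 scale after 0.5 FPKM was added, and each carries a 95% exact interval of the read ratio that covers counting error only. There was 1 library per group, so no test across samples was possible, no p-value was computed, and the spread between animals is not known for any difference. Genes whose mean reached 1 FPKM are called measured. Those that differed by 1.5-fold or more, with an interval that excludes a ratio of 1, are called higher or lower. In bulk RNA, fewer cells of a type and less RNA per cell cannot be told apart.

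About 11400000 reads lay behind the CKO values and 12500000 behind the Ctrl values, as worked out from the p-values of the table. All 14 luminal markers were measured, with summed levels of 21090 FPKM in CKO and 16473 FPKM in Ctrl. The keratin gene Krt18 alone gave 10398 FPKM of this sum in CKO and 6607 FPKM in Ctrl and was the 1 luminal marker counted as higher, while 7 intervals lay above a ratio of 1 and 6 below (Pgr, Prlr, Foxa1, Gata3, Elf5 and Cldn4). Basal (myoepithelial) markers were also present: among 14 measured, CKO had 8 higher and 1 lower. The summed level of the 16 listed was 527.8 FPKM in CKO and 443.8 FPKM in Ctrl. Igfbp5 alone gave 166.1 FPKM of this sum in CKO and 235.1 FPKM in Ctrl, against the direction of the sum. Over all 11667 measured genes, 2.29% were higher and 3.04% lower, with 16.5% of intervals above a ratio of 1 and 23.6% below. No basal marker was at the floor of 0.01 FPKM in either library. Some Wnt genes are also expressed by basal cells, and the part of such cells in the values below was not tested.

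The deleted pair makes 2 microRNAs whose 3p arms differ at 1 base of the seed, bases 2 to 8, which pairs with messenger RNAs. The mature arms (RefSeq, GRCm38.p6, chromosome 6, minus strand) are shown with the seed in capitals, since the seed defines the sites sought in the Wnt genes.
miR-200c-3p: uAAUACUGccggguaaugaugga
miR-141-3p: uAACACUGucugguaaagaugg
The seed of miR-200c-3p is also that of miR-200b-3p and miR-429-3p, and the seed of miR-141-3p is that of miR-200a-3p. Those 3 microRNAs lie on chromosome 4, outside the deleted cluster.

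The letters opposite the seed are CAGTATT (miR-200c-3p) or CAGTGTT (miR-141-3p). Both were sought, on the transcript strand only, in the 3' UTR that is longest in the annotation for a gene. Of the 53 genes, 10 (18.9%) held at least 1 match, against 28.0% of the 16172 genes of the table with such a UTR. CAGTATT was in 11.3% of the Wnt genes and 14.3% of all, and CAGTGTT in 13.2% and 19.2%. Sites of 6 measured Wnt genes with a match follow, with the match in capitals (GENCODE M21, GRCm38). Each lies in the last exon of its gene.
Wnt5a, miR-200c-3p, chr14:28526429-28526435, plus strand: cagttgtatattgacCAGTATTctttat
Wnt5a, miR-141-3p, chr14:28527313-28527319, plus strand: atctagaaggttgaaCAGTGTTttcaaa
Lrp6, miR-200c-3p, chr6:134447691-134447697, minus strand: gtatcagttggttggCAGTATTtaagaa
Lgr4, miR-141-3p, chr2:110013232-110013238, plus strand: cagtgattcccctctCAGTGTTtgacaa
Ror2, miR-200c-3p, chr13:53109430-53109436, minus strand: acgttgtacagaaagCAGTATTgttaat
Fzd3, miR-200c-3p, chr14:65199716-65199722, minus strand: caaaaagatccaaggCAGTATTaagctc
Ror1, miR-141-3p, chr4:100444562-100444568, plus strand: tcacctatataatgaCAGTGTTcaggta
Fzd3 held 3 further matches to miR-141-3p. Apc held 2 matches to miR-200c-3p and 1 to miR-141-3p, and Fzd8 held 1 to miR-141-3p. Their sites are not shown, although Apc ranked next after Wnt5a in level among the genes with a match. The other genes with a match, Sfrp4 and Dkk2, were under the minimum level.

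Few of the Wnt genes differed much between the libraries. Of the 53 genes, 35 were measured, each at 1 FPKM or more in both libraries. Among these, 0 were higher and 1 was lower (Ror2), against 2.29% higher and 3.04% lower over all 11667 measured genes. The share of 2.86% lower among the Wnt genes is thus near that of all genes and is not a result about them. The median log2 ratio was -0.04 for the Wnt genes and -0.03 for all measured genes. The authors' deposited table calls 0 of the 53 up or down, where it calls 0.615% of its genes up and 0.639% down.

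**Figure D1:**
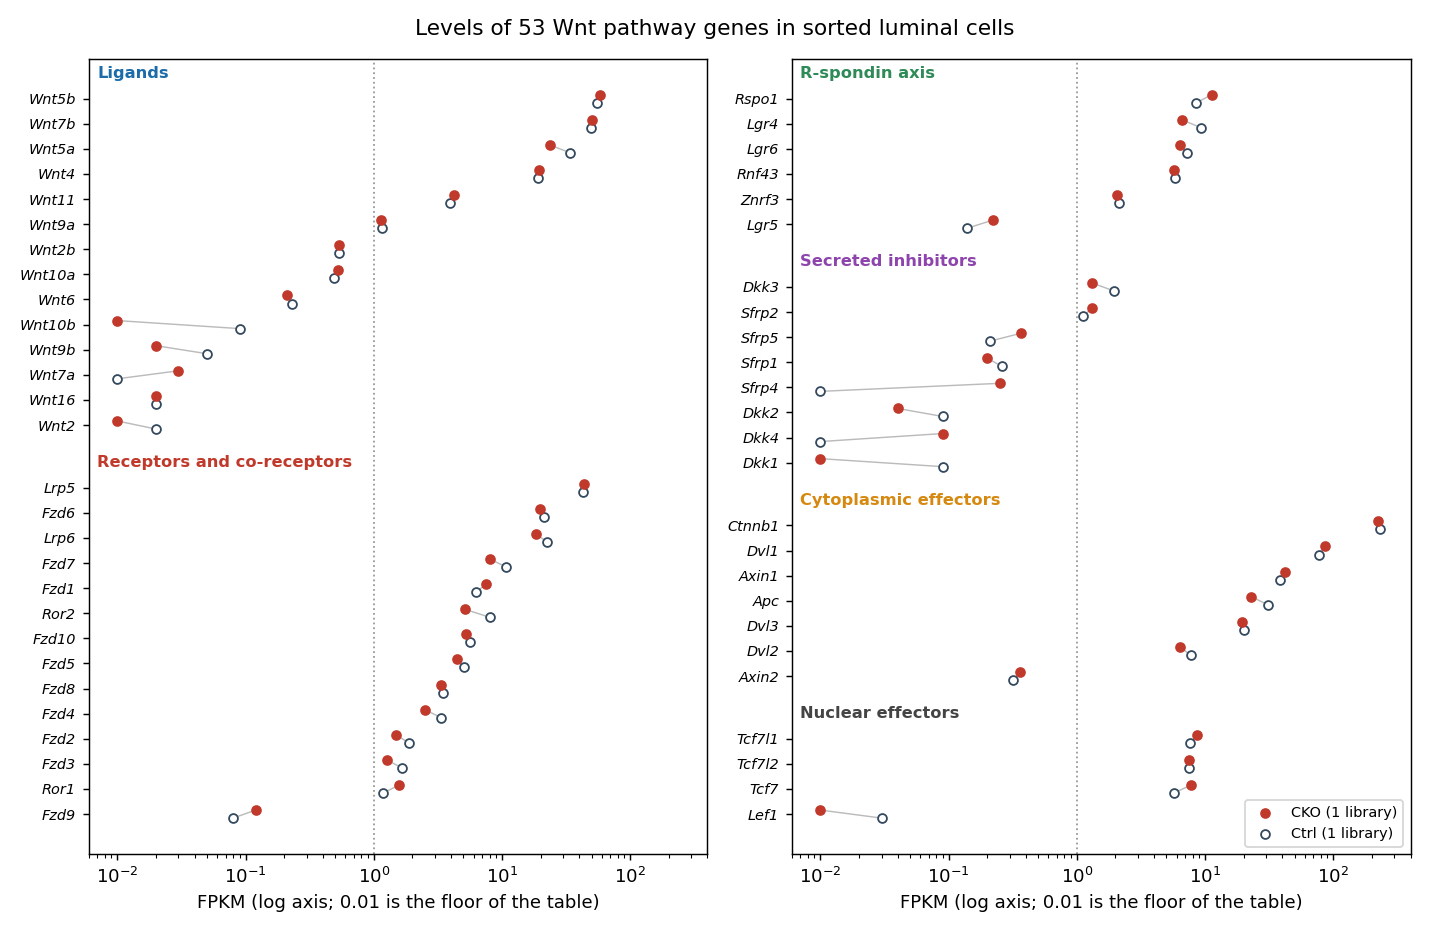
Level of each of the 53 Wnt pathway genes in FPKM on a log axis, with CKO as filled red points and Ctrl as open points (1 library each), grouped by role. The most abundant ligands, Wnt5b, Wnt7b, Wnt5a and Wnt4, stand well apart from the other 10, and the CKO and Ctrl points of most genes above 1 FPKM (dotted line) lie close together.

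A looser count asked only that the counting interval exclude a ratio of 1. By that rule 5 of 35 (14.3%) lay above and 11 of 35 (31.4%) below, against 16.5% above and 23.6% below over all measured genes. The genes below were Wnt5a, Ror2, Lrp6, Fzd7, Fzd4, Fzd3, Lgr4, Lgr6, Dkk3, Apc and Dvl2. Those above were Rspo1, Tcf7, Fzd1, Dvl1 and Axin1. Whole read numbers could be recovered from the deposited p-values for 26 of the 35, and with these 4 lay above and 11 below: Axin1 and Lgr6 then held a ratio of 1, and Fzd6 lay below.

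Among the ligands, 4 genes made up nearly all of the Wnt transcript level. Wnt5b, Wnt7b, Wnt5a and Wnt4 together held 95.8% of the summed ligand FPKM in CKO and 96.0% in Ctrl. Wnt5b, a close relative of Wnt5a, was the highest at 58.4 FPKM in CKO and 54.57 FPKM in Ctrl. Wnt7b, which can act through beta-catenin, was at 50.63 FPKM in CKO and 49.2 FPKM in Ctrl. The intervals of both ratios, from -0.00 to 0.20 for Wnt5b and from -0.05 to 0.13 for Wnt7b, held no difference.

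Wnt4, the ligand that relays progesterone to the basal layer, differed little between the libraries. It was at 19.26 FPKM in CKO and 19.0 FPKM in Ctrl, from 847 and 912 reads, with a log2 ratio of 0.02 (-0.12 to 0.16). The progesterone receptor gene Pgr was at 18.24 FPKM in CKO and 24.9 FPKM in Ctrl, a log2 ratio of -0.44. The interval of Pgr (-0.55 to -0.35) lay below that of Wnt4. The Pgr transcript is longer (6950 bases) than that of Wnt4 (3823 bases), and ratios fell with length over all genes, as given below. The part of length in this contrast was not tested.

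Wnt5a, the main ligand of the Ror pathway and a known restraint on mammary branching, was the ligand that differed most. It was at 23.49 FPKM in CKO and 34.15 FPKM in Ctrl, a log2 ratio of -0.53 (-0.65 to -0.44) that stays short of 1.5-fold. Its share of the summed ligand FPKM was 14.8% in CKO and 20.9% in Ctrl. The read ratio implied by the deposited p-value was smaller, -0.47. The Wnt5a gene (Entrez 22418) spans chr14:28504543-28527448 in GRCm38, and its UTR carries the pair of seed matches printed above.

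The remaining ligands were weak. Wnt11, which signals mostly without beta-catenin, was at 4.19 FPKM in CKO and 3.92 FPKM in Ctrl, and Wnt9a at 1.13 and 1.15 FPKM. Wnt2b, Wnt10a, Wnt6, Wnt10b, Wnt9b, Wnt7a, Wnt16 and Wnt2 were under the minimum, at 0.54 FPKM or less in both libraries. Wnt10b and Wnt2 had 0 recovered reads in CKO and Wnt7a had 0 in Ctrl, where the other library had 1 to 3. No difference in these 8 was detectable at this depth.

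Of the receptors and co-receptors, 13 of 14 were measured, with 10 log2 ratios below 0 and 3 above. Over all 11667 measured genes 6393 were below 0 and 5231 above. The measured receptor genes had a median length of 4395 bases, against 2776 bases for all measured genes, and the part of length in this count was not tested. The summed level of the 10 Frizzled genes was 53.87 FPKM in CKO and 59.34 FPKM in Ctrl. The co-receptor gene Lrp5 was the most abundant, at 43.41 FPKM in CKO and 43.19 FPKM in Ctrl. Its partner Lrp6 was at 18.42 FPKM in CKO and 22.42 FPKM in Ctrl, a log2 ratio of -0.28 (-0.37 to -0.20). The 2 co-receptors thus had ratios whose intervals did not overlap.

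Ror2, a tyrosine kinase receptor for Wnt5a, was the 1 Wnt gene counted as lower. It was at 5.12 FPKM in CKO and 8.03 FPKM in Ctrl, 1.52-fold lower, with a log2 ratio of -0.60 (-0.88 to -0.41) from about 234 and 400 reads. This lies just past the limit of 1.5-fold, and with 1 FPKM added in place of 0.5 the gene no longer reached it. Its relative Ror1 ran the other way, at 1.58 FPKM in CKO and 1.19 FPKM in Ctrl, with a log2 ratio of 0.30 (-0.01 to 0.84). The intervals of Ror2 and Ror1 did not overlap, while that of Ror1 held no difference. The Ror2 gene (Entrez 26564) spans chr13:53109317-53286124 in GRCm38.

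The Frizzled genes encode the receptors that bind Wnt directly. Fzd6, the most abundant, was at 19.95 FPKM in CKO and 21.25 FPKM in Ctrl. Fzd7, linked in the mammary gland to basal and stem-like cells, was at 8.07 FPKM in CKO and 10.76 FPKM in Ctrl, a log2 ratio of -0.39 (-0.59 to -0.24). Fzd1 was the only measured Frizzled gene with a log2 ratio above 0, at 7.45 FPKM in CKO and 6.32 FPKM in Ctrl (0.22, interval 0.02 to 0.45).

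The other Frizzled genes were at lower levels in both libraries. Fzd10 was at 5.22 FPKM in CKO and 5.58 FPKM in Ctrl, Fzd5 at 4.48 and 5.01 FPKM, and Fzd8 at 3.33 and 3.46 FPKM. Their intervals held a ratio of 1, as did that of Fzd2 at 1.49 FPKM in CKO and 1.87 FPKM in Ctrl. Fzd4, also the receptor of the vascular ligand norrin, was at 2.5 FPKM in CKO and 3.35 FPKM in Ctrl, from 106 and 155 reads (log2 ratio -0.36, interval -0.80 to -0.06). Fzd3, known for roles in axon guidance, was at 1.26 FPKM in CKO and 1.66 FPKM in Ctrl, from 185 and 267 reads (-0.30, -0.67 to -0.12). Fzd9 was nearly silent, with 3 reads in CKO and 2 in Ctrl.

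**Figure D2:**
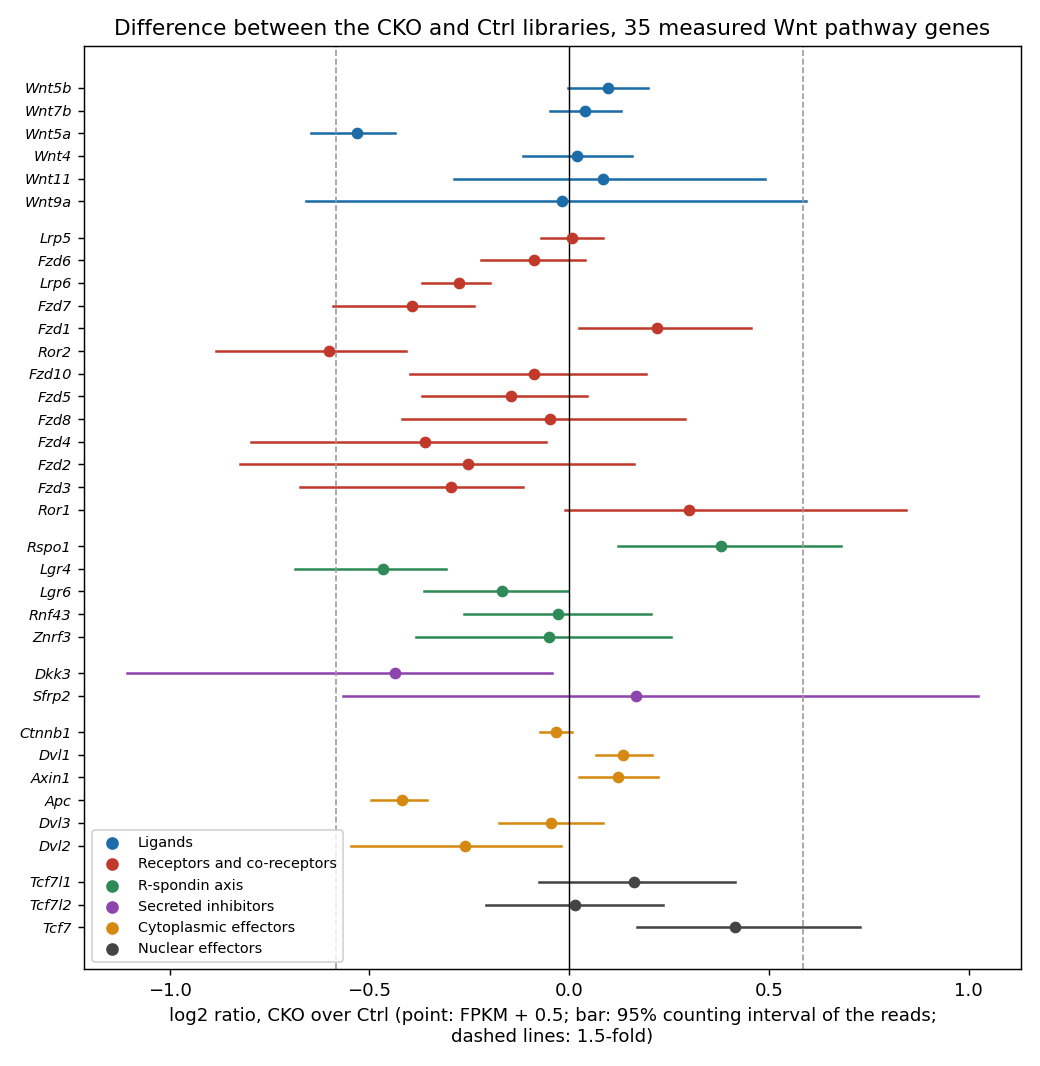
log2 ratio of CKO over Ctrl for the 35 measured Wnt pathway genes, with points from FPKM plus 0.5, bars for the 95% counting interval of the reads, and dashed lines at 1.5-fold. Ror2 at -0.60 is the only point beyond a dashed line, followed by Wnt5a at -0.53 and Lgr4 at -0.47, while Tcf7 at 0.42 and Rspo1 at 0.38 are the highest.

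The R-spondin axis tunes how many Wnt receptors stay at the cell surface. R-spondins bind Lgr receptors and so hold back Rnf43 and Znrf3, ubiquitin ligases that remove Frizzled proteins. Rspo1, the only R-spondin gene analysed here, was at 11.3 FPKM in CKO and 8.56 FPKM in Ctrl, from 236 and 195 reads, a log2 ratio of 0.38 (0.12 to 0.68). Its receptor gene Lgr4 was at 6.61 FPKM in CKO and 9.32 FPKM in Ctrl, a log2 ratio of -0.47 (-0.69 to -0.31). Ligand and receptor therefore lay on opposite sides of a ratio of 1, both within 1.5-fold.

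Lgr6 is a case in which FPKM and reads differed. It was at 6.33 FPKM in CKO and 7.18 FPKM in Ctrl, a log2 ratio of -0.17 (-0.36 to -0.00). The deposited p-value returned 467 reads in CKO and 491 in Ctrl, which scaled by library totals give 0.06 (-0.13 to 0.24). FPKM and reads thus gave Lgr6 opposite signs. Lgr5, a stem cell marker found in basal cells of the gland, was nearly absent, with 12 reads in CKO and 8 in Ctrl. The ligase genes Rnf43, at 5.74 FPKM in CKO and 5.86 FPKM in Ctrl, and Znrf3, at 2.04 and 2.13 FPKM, had intervals that held a ratio of 1.

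Secreted inhibitors were scarce. Of 8 genes of the Sfrp and Dkk families, which bind Wnt or its co-receptors, 2 were measured. Dkk3, a divergent member that is not a classical Lrp antagonist, was at 1.31 FPKM in CKO and 1.95 FPKM in Ctrl, from 50 and 82 reads (log2 ratio -0.44, interval -1.11 to -0.04). Sfrp2 was at 1.32 FPKM in CKO and 1.12 FPKM in Ctrl. Sfrp5, Sfrp1, Sfrp4, Dkk2, Dkk4 and Dkk1 were at 0.37 FPKM or less in both libraries. Sfrp4 had 5 reads in CKO and 0 in Ctrl, and no other gene of these 6 had 0 reads in one library and more than 3 in the other.

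In the cytoplasm, beta-catenin itself dominated. Ctnnb1, which also links cadherins at cell junctions, was the most abundant of the 53 genes, at 225.0 FPKM in CKO and 230.3 FPKM in Ctrl. Its log2 ratio was -0.03 with an interval of -0.07 to 0.01, from reads estimated at about 9193 and 10277. No single read pair was recovered, and the log2 read ratio implied by the deposited p-value was -0.04. Whether its reads differed beyond counting error is not settled by these values.

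The Dishevelled genes, whose proteins carry the signal from Frizzled, had ratios on both sides of 1. Dvl1 was at 85.43 FPKM in CKO and 77.7 FPKM in Ctrl (log2 ratio 0.14, interval 0.07 to 0.21), Dvl3 at 19.44 and 20.06 FPKM (-0.04, -0.18 to 0.08), and Dvl2 at 6.35 and 7.7 FPKM (-0.26, -0.55 to -0.02). All 3 lay within 1.5-fold.

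The scaffolds of the destruction complex also lay on both sides of a ratio of 1. Apc was at 22.93 FPKM in CKO and 30.8 FPKM in Ctrl, a log2 ratio of -0.42 (-0.50 to -0.36), and the read ratio implied by its deposited p-value was -0.36. Axin1 was at 42.14 FPKM in CKO and 38.67 FPKM in Ctrl, a log2 ratio of 0.12. Its recovered reads, 1683 in CKO and 1735 in Ctrl, gave 0.08 (-0.01 to 0.18). Axin2, the standard transcriptional readout of canonical signalling, stood at 0.36 FPKM in CKO and 0.32 FPKM in Ctrl, from 17 reads in each library.

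Of the nuclear effectors, the 3 measured Tcf genes had log2 ratios above 0 and Lef1 was absent or nearly so, with 0 reads in CKO and 1 in Ctrl. Tcf7, which encodes the factor also called Tcf1, was at 7.81 FPKM in CKO and 5.73 FPKM in Ctrl, from 241 and 193 reads. Its log2 ratio of 0.42 (0.17 to 0.73) was the highest of the measured Wnt genes. Tcf7l1, often a repressor, was at 8.64 FPKM in CKO and 7.66 FPKM in Ctrl, and Tcf7l2 at 7.52 and 7.44 FPKM. The intervals of Tcf7l1 (-0.08 to 0.41) and Tcf7l2 (-0.21 to 0.23) held a ratio of 1.

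In the authors' deposited table, 7 of the 53 genes had a false discovery rate of at most 0.001, all short of its 2-fold limit. Of the 53, 6 were lower and 1 higher at that rate, where 6.27% of all genes in the table were lower and 4.32% higher. They were Apc, Wnt5a, Ror2, Lrp6, Lgr4 and Fzd7, all lower in CKO, and Dvl1, higher in CKO. The rates in the authors' deposited table were 2.62e-23 for Apc, 6.04e-18 for Wnt5a and 5.91e-07 for Ror2. That test compares the reads of 1 library with those of the other, not the conditions.

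**Figure D3:**
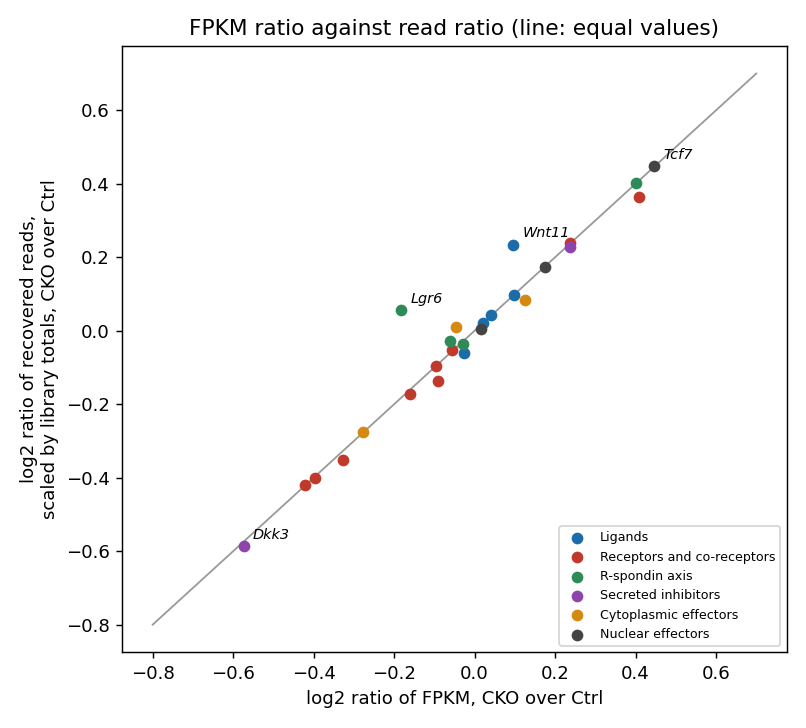
log2 ratio of recovered reads, scaled by the library totals, against the log2 ratio of FPKM without an added value, both CKO over Ctrl, for the 26 measured Wnt pathway genes with a single read pair. Most points lie on the line of equal values, and Lgr6 (-0.18 by FPKM, 0.06 by reads) and Wnt11 (0.10 by FPKM, 0.23 by reads) lie off it by more than 0.1.

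Transcript length moved with these ratios. Across the 35 measured Wnt genes Spearman's rho of length and log2 ratio was -0.50, and across all 11667 measured genes it was -0.35. Both are descriptions, since genes of the same libraries are not independent replicates. Over all measured genes the median log2 ratio was 0.11 in the first and -0.20 in the last of 10 equal groups ordered by length.

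The long Wnt genes had a median near that of long genes in general, while single genes lay apart from it on both sides. Of 9 measured Wnt genes of at least 5000 bases, 7 had log2 ratios below 0, with a median of -0.17, which is also the median of the 1873 measured genes of that length. Of the 26 shorter ones, 14 were below 0 and 12 above. After subtraction of the median of genes of like length, Lrp6 was at -0.08, Fzd3 at -0.10 and Apc at -0.22. Ror2 (-0.52), Wnt5a (-0.45), Dkk3 (-0.39) and Lgr4 (-0.35) remained the lowest, and Tcf7 and Ror1 (0.42 each) and Rspo1 (0.34) the highest. On that scale 0 of 35 reached 1.5-fold in either direction. The part of length in each ratio was not tested further.

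**Figure D4:**
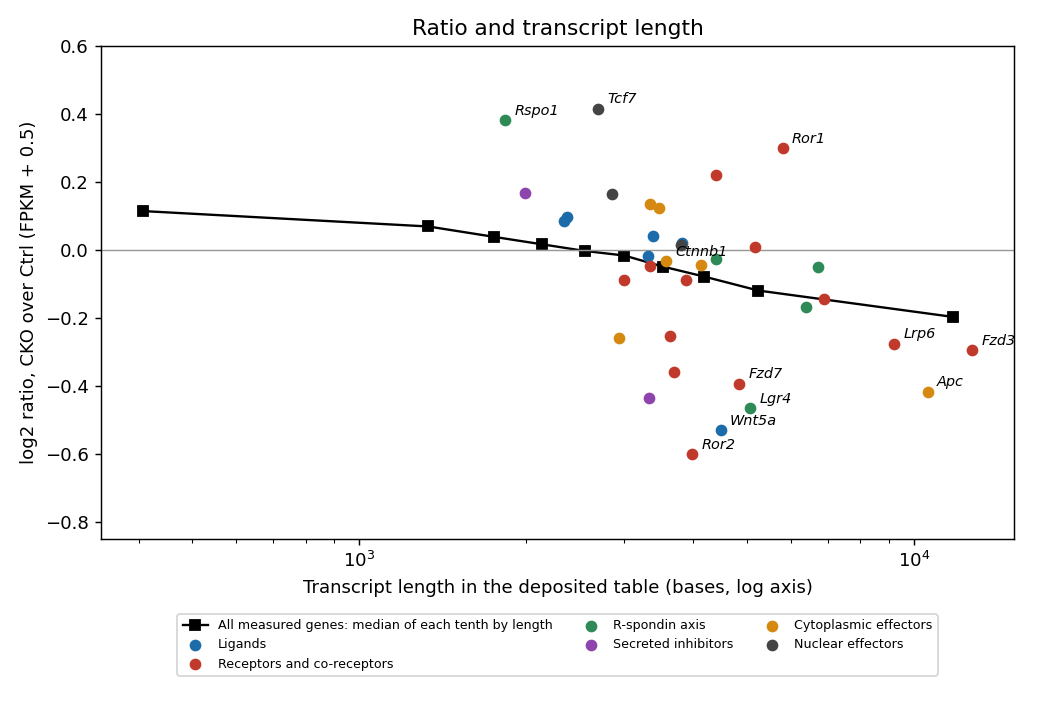
log2 ratio of CKO over Ctrl (FPKM plus 0.5) against transcript length on a log axis, with coloured points for the 35 measured Wnt pathway genes and black squares for the medians of all measured genes in 10 groups by length. The medians run from 0.11 to -0.20 with length. Ror2, Wnt5a, Dkk3, Lgr4, Fzd4 and Fzd7 lie well below this line, while Tcf7, Rspo1 and Ror1 lie above it.

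Wnt genes with a seed match had mostly lower FPKM in CKO. Of the 8 measured genes with a match, 7 had log2 ratios below 0 and 1 above (Ror1), with a median of -0.36. Of the 27 without one, 14 were below 0 and 13 above, with a median of -0.02. Over all measured genes with a match, 2184 of 3424 were below 0 and 1231 above, with a median of -0.08. Of the 8018 without one, 4094 were below 0 and 3890 above, with a median of -0.01. The Wnt genes with a match had a median UTR length of 3565 bases, against 1695 bases for those without, so the split by match is in part a split by length. Its separate part was not tested.

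The other genes of the pathway, taken from lists of secretion, extracellular inhibition, destruction complex, nuclear cofactors and planar polarity, were counted by the same rule. Among the 73 measured, 1 was higher and 1 lower, beside 2.29% higher and 3.04% lower over all measured genes. Their median log2 ratio was -0.04. The higher one was Nfatc2, a calcium-regulated transcription factor gene, at 14.31 FPKM in CKO and 8.66 FPKM in Ctrl, 1.62-fold higher. The lower one was Nlk, a kinase gene whose product restrains Tcf factors, at 3.41 FPKM in CKO and 5.74 FPKM in Ctrl (log2 ratio -0.67, interval -1.02 to -0.48).

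Measured genes for Wnt secretion and for turnover of beta-catenin stayed within 1.5-fold. Dact1, of the turnover list but under the minimum, was at 0.86 FPKM in CKO and 0.37 FPKM in Ctrl. This is 1.56-fold higher, a log2 ratio of 0.64 (0.38 to 2.17). Wls, which escorts Wnt proteins to the surface, was at 31.52 FPKM in CKO and 36.39 FPKM in Ctrl, and Porcn, which attaches their lipid, at 6.8 and 5.24 FPKM. The priming kinase gene Csnk1a1 was at 201.4 FPKM in CKO and 251.6 FPKM in Ctrl, a log2 ratio of -0.32, and Gsk3b, the kinase gene that marks beta-catenin for degradation, at 10.94 and 13.39 FPKM (-0.28). The tankyrase genes Tnks2 and Tnks, whose products destabilise Axin, had log2 ratios of -0.34 and -0.39. The deubiquitinase gene Usp34 had one of -0.33 and the ubiquitin ligase gene Siah1b, at 3.88 FPKM in CKO and 5.91 FPKM in Ctrl, one of -0.55. Gsk3b, Tnks2, Tnks and Usp34 fell in the longest of the 10 groups by length, with a median of -0.20 over all measured genes. Of 20 measured genes in the turnover list, 7 had intervals below a ratio of 1 and 1 above, and 0 were counted as higher or lower. Over all measured genes, 23.6% of intervals lay below and 16.5% above.

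Among 24 measured nuclear cofactors, 8 had intervals below a ratio of 1 and 4 above. Pygo1, of that list but under the minimum, was at 0.2 FPKM in CKO and 0.74 FPKM in Ctrl, a log2 ratio of -0.82 (-3.91 to -0.24). The acetyltransferase gene Ep300 had a log2 ratio of -0.41, and Bcl9l, which joins beta-catenin to its coactivators, one of -0.39. Planar polarity and non-canonical genes, 25 measured, had 7 intervals below and 1 above. Over all measured genes 23.6% of intervals lay below and 16.5% above, and no test compared these lists with them. Celsr1 and Celsr2, atypical cadherin genes of planar polarity, had log2 ratios of -0.28 and -0.18, and Rock1 and Rock2, kinase genes of the cytoskeleton, -0.29 and -0.20. Ep300, Bcl9l, Celsr1, Celsr2, Rock1 and Rock2 were all in the longest of the 10 groups by length. The median log2 ratio of that group was -0.20 over all measured genes, and the part of length was not tested.

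Of 22 measured genes known as Wnt targets in other settings, 2 were higher and 0 lower, and the median log2 ratio was -0.05, beside 2.29% higher and 3.04% lower over all measured genes. The higher ones were Ccnd1, the cyclin D1 gene named in the title of the study, at 19.74 FPKM in CKO and 11.95 FPKM in Ctrl, and Birc5, a spindle and survival gene, at 2.01 and 0.66 FPKM. Birc5 passed the minimum only through its CKO value. Myc, a growth regulator gene, was at 102.2 FPKM in CKO and 72.55 FPKM in Ctrl, a log2 ratio of 0.49. Tiam1, an activator of Rac, had a log2 ratio of -0.46. Many of these genes answer to other signals as well.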

How the data were processed

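Bulk RNA was sequenced from 1 CKO and 1 Ctrl library of sorted mammary luminal cells, grouped by their titles. The submitters' processing notes give mm10 as the genome and name RSEM, Bowtie2 and HISAT, with no versions. The deposited FPKM carry no unit in the file headers: their products with length in kilobases add up to 999909 in CKO and 999609 in Ctrl. They are rounded to 2 decimals, with a floor of 0.01. The deposited log2 ratio equals the ratio of the FPKM columns, and the deposited p-value is the authors' comparison of the reads of 1 library with the other. The other measurement used is the length column (bases), deposited by the authors.

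Ratios, intervals and figures were computed in Python 3.11.15 with scipy 1.17.1 and matplotlib 3.10.9. Read totals were estimated from the deposited p-values. For genes at the floor in 1 library, p follows 1 share of reads raised to a power (0.4779 for CKO), and the power came within 0.01 of a whole read number in 1378 of 1431. A fit to 11185 genes gave the totals, and the fitted log10 p missed the deposited one by 0.0541 in the median. Estimated reads are FPKM times length times these totals. For each Wnt gene, whole-read pairs within 20% (plus 3 reads) of this estimate that return the deposited p-value to its printed digits were sought, and 44 of 53 genes had exactly 1 pair. The same search returned 1 pair for 98.2% of 1854 genes with 15 to 60 reads. Intervals (Clopper-Pearson) cover counting error only. The functions were tested on simulated data.

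The values proved to be FPKM, so no count model was used. The genes and lists were chosen with earlier results of these data known. Every Wnt gene of the rule is reported: those of at least 1 FPKM on average with values, the others by range. Of the other lists, all measured genes past 1.5-fold with an interval that excludes a ratio of 1 are named. For lists of pathway, target and hormone-related genes, some of the first 6 ranked by the interval bound nearest to a ratio of 1 follow. Some genes under the minimum are named as well. All 53 identifiers matched the RefSeq table of GRCm38.p6. UTRs of at least 30 bases came from protein-coding transcripts. Alternatives were other added values, minimum levels, folds and scalings, no interval, and, chosen after seeing the data, subtraction of the median of genes of like length and recovered reads. The deleted cluster itself is not analysed here.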

Additional observations from a re-analysis of the deposited data

How the results depend on the processing

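The count of 0 higher Wnt genes held under all alternatives for which it was recounted, which leave out recovered reads. The count of lower Wnt genes, 1 (Ror2), became 0 with 1 FPKM added in place of 0.5, at a fold of 2, and after subtraction of the median of genes of like length. It stayed at 1 under the other alternatives for which it was recounted, and the median log2 ratio stayed between -0.05 and 0.03. The count was not repeated with recovered reads, and no read pair was recovered for Ror2. By recovered reads, without an added value, Dkk3 had a log2 ratio of -0.59 (-1.12 to -0.06), just past 1.5-fold. The other pathway genes, 1 higher and 1 lower, had 2 lower with 0.1 FPKM added, 2 higher at a minimum of 0.5 FPKM, 0 lower at a minimum of 5 FPKM, 2 higher and 2 lower with no minimum, 0 and 0 at a fold of 2, and 2 higher without division by length. The causes were not tested beyond what each setting removes or adds. Subtraction of the length median, chosen after seeing the data, changed the sign of 8 of 35 Wnt genes, and recovered reads that of 2 of 26 (Lgr6 and Dvl3). No sign changed with other added values, trimmed mean scaling (a shift of -0.01) or no division by length. No paired analysis was possible because there is 1 library per group, and for that reason no library could be left out. Depth limits the 18 genes under the minimum, none of which had more than 24 reads in a library.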

Other observations

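Genes of the hormonal setting in which luminal Wnt signals act were spread over both directions. Of 10 measured, 1 was higher (Krt18) and 1 lower (Calca), and 5 intervals lay on each side of a ratio of 1. Over all measured genes 2.29% were higher and 3.04% lower, with 16.5% of intervals above and 23.6% below. Krt18, a luminal keratin gene also counted among the luminal markers, was at 10398 FPKM in CKO and 6607 FPKM in Ctrl. Calca, the calcitonin gene, was at 6.29 FPKM in CKO and 22.82 FPKM in Ctrl, a log2 ratio of -1.78 (-2.22 to -1.50). Prlr, the prolactin receptor gene, was at 177.1 FPKM in CKO and 217.8 FPKM in Ctrl, and Areg, which encodes the growth factor amphiregulin, at 302.5 and 263.4 FPKM. Krt8, the keratin gene whose promoter drives the Cre, was at 4476 FPKM in CKO and 3871 FPKM in Ctrl.

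Among basal markers, the keratin gene Krt14 was at 90.79 FPKM in CKO and 44.49 FPKM in Ctrl and the smooth muscle actin gene Acta2 at 66.72 and 33.68 FPKM. The other 6 basal markers counted as higher were Myh11, Tagln, Krt17, Krt5, Cnn1 and Actg2. Trp63, the regulator gene of basal identity, ran the other way, at 1.05 FPKM in CKO and 2.96 FPKM in Ctrl. So did Igfbp5, the most abundant basal marker, at 166.1 FPKM in CKO and 235.1 FPKM in Ctrl. Its log2 ratio of -0.50 (-0.54 to -0.47) stayed short of 1.5-fold. Of the 14 measured basal markers, 12 had intervals above a ratio of 1 and 2 below. The markers of other cells that the deposited table holds were detected in both libraries, none of them at the floor. The summed level of the 9 myeloid markers was 56.51 FPKM in CKO and 36.22 FPKM in Ctrl. Cd74, counted as higher, gave 34.79 FPKM of it in CKO and 17.98 FPKM in Ctrl. Of the 7 measured, 5 had log2 ratios above 0 and 2 below, C1qc (0.62 FPKM in CKO, 1.38 FPKM in Ctrl) and C1qb (1.34 and 1.69 FPKM). Myeloid intervals lay above a ratio of 1 for 2 genes (Cd74 and Lyz2) and below for 0. The summed level of the 7 endothelial markers was 36.49 FPKM in CKO and 34.79 FPKM in Ctrl, with Flt1 lower at 1.37 FPKM in CKO and 2.32 FPKM in Ctrl. Among them 2 intervals lay above a ratio of 1 (Pecam1 and Eng) and 2 below (Flt1 and Vwf). The summed level of the 8 fibroblast markers was 43.66 FPKM in CKO and 41.18 FPKM in Ctrl, with 0 of 4 measured counted either way. Dcn gave 30.74 FPKM of it in CKO and 25.57 FPKM in Ctrl, with an interval above a ratio of 1, and that of Col1a2 lay below. Pdgfra (0.31 FPKM in CKO, 1.05 FPKM in Ctrl) and Lum (0.38 and 1.16 FPKM) were under the minimum, with intervals below a ratio of 1. Of 5 adipocyte markers, 3 were in the deposited table. The 1 measured, Fabp4, was at 44.19 FPKM in CKO and 33.36 FPKM in Ctrl. Plin1 (0.05 FPKM in CKO, 0.17 FPKM in Ctrl) and Cidec (0.1 and 0.14 FPKM) were under the minimum, with intervals that held a ratio of 1. The part of these cells in the Wnt values was not tested.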
